A study of Mus musculus with 6 samples.

Results

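Skeletal muscle fibres receive acetylcholine from the motor nerve at a single specialised patch, the neuromuscular junction. The 10 genes examined here encode the muscle acetylcholine receptor and the proteins that cluster it there, taken by name (Chrna1, Chrnb1, Chrnd, Chrne, Chrng, Agrn, Lrp4, Musk, Dok7 and Rapsn), and each was found as 1 of the 54532 genes in the deposited table. The study compared muscle of control mice (Igf2f/f) with that of conditional knockouts (Mck-Cre+; Igf2f/f, called Igf2 cKO), with 3 libraries in each group, to ask what loss of insulin-like growth factor 2 does to muscle. Mice of both groups were on a C57BL/6 background and carried loxP sites on either side of exon 2 on both Igf2 alleles. Controls were Cre-negative littermates, and the Cre of the Igf2 cKO mice was driven by the muscle creatine kinase promoter, which drives expression in muscle fibres and not in the nerve. Which muscle was taken, and the age and sex of the mice, are not given in the labels.

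The receptor is a ring of subunits that opens a cation channel when acetylcholine binds. Fetal fibres build it from alpha, beta, delta and gamma subunits, and in adult fibres epsilon takes the place of gamma. Agrin from the nerve binds LRP4 on the fibre, LRP4 activates the kinase MuSK, the adaptor DOK7 holds MuSK active, and rapsyn then anchors receptors under the nerve terminal. Transcripts of most of these genes are made mainly by the few nuclei beneath the synapse, and denervation is known to raise Chrna1, Chrnd, Chrng and Musk along the whole fibre.

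RefSeq (GRCm38.p6) gave 9 upstream sequences for 7 of the 10 genes, with 2 starts each for Agrn and Dok7. Those of 4 genes are shown: the alpha subunit, the adult and fetal subunits that replace each other, and Dok7. Dok7 was picked because each of its knockout libraries lay above each control, as for 7.83% of all tested genes. Each is the 250 bases before the RefSeq start on the gene's own strand, written 5′ to 3′. They lie at chr2:73580339-73580588 (minus strand) for Chrna1, chr11:70619195-70619444 (minus) for Chrne, chr1:87205561-87205810 (plus) for Chrng and chr5:35056516-35056765 (plus) for the first Dok7 start. The Chrng stretch lies inside the gene as listed for the counts, which starts at 87204657. That of Chrne overlaps its listed gene, which reaches to 70619216. Capitals mark E-box letters, CANNTG, the motif of myogenic factors such as MyoD and myogenin, and the ETS core CCGGAA (or TTCCGG on the other strand), known as the N-box of synapse-specific genes.
Chrna1: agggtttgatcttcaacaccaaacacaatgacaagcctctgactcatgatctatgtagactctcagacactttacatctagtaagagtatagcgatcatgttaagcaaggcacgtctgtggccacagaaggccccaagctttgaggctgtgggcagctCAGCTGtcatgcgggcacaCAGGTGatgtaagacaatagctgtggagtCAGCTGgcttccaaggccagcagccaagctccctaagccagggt
Chrne: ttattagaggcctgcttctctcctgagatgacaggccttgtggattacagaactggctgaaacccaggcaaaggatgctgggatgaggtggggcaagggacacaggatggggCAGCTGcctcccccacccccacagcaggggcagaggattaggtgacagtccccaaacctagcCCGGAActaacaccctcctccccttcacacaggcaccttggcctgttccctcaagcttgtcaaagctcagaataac
Chrng: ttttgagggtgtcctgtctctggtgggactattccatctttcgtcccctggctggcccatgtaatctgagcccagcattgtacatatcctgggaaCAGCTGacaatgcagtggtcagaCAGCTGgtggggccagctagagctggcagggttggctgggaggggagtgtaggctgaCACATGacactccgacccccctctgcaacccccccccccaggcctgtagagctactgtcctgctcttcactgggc
Dok7: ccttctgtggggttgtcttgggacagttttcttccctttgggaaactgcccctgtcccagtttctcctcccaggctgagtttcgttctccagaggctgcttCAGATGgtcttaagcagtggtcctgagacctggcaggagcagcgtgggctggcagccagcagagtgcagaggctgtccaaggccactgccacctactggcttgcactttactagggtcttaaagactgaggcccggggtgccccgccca
CANNTG reads the same on both strands and was present in 7 of the 9 sequences, and in 66.2% of all 32851 upstream sequences. The first Agrn start and the second Dok7 start had none. Its form CAGCTG stood in 4 of the 9 (those of Chrna1, Chrne, Chrng and Musk) and in 13.0% of all. Chrna1 and Chrng each held 2 copies of CAGCTG, at 92 and 44 bases and at 155 and 132 bases before the start. CCGGAA stood in 1 of the 9, that of Chrne, at 76 bases before the start, and in 12.0% of all upstream sequences. These are matches of letters and do not show binding.

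Total counts lay between 16184371 and 17905203 per library. Igf2 itself had 39 to 60 counts in controls and 33 to 42 in the knockouts (log2 fold change -0.31 ± 0.25 SE, adjusted p = 0.751 by edgeR), and a count over the gene does not separate the floxed exon, so it does not check the labels. Summed over 10 genes listed as fast fibre markers the level was 141759 to 166547 CPM (TMM-scaled counts-per-million) in controls and 112822 to 140665 in the knockouts. Myh4 and Acta1 were the largest in controls, with means of 38322 and 37714 CPM. Acta1 is not particular to fast fibres, so the sum is not of fast fibres alone. By edgeR 0 of the 10 were called at an adjusted p under 0.05, beside 0.249% of all tested genes. Their log2 fold changes were below 0 for 8 and above 0 for 2, Myh1 (0.34) and Myh2 (0.26). The 8 slow fibre markers summed to 1247 to 1379 CPM in controls, and to 469.6, 2449 and 482.6 CPM in the 3 knockouts. Of 7 motor axon markers, Chat, Slc18a3 and Slc5a7 had 0 counts in each library. Prph had 14 to 35 counts, and Nefl, Nefm and Nefh had at most 2, 4 and 5 counts in a library. Markers of Schwann cells, which wrap the nerve, were present, and their levels are given beside Agrn.

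No member passed the threshold. Of the 9 members with enough counts to be tested, 0 were called at an adjusted p under 0.05 by edgeR, DESeq2 or limma-voom. Of all 14867 tested genes edgeR called 0.249% (37 genes, or between 8 and 68 with 1 library left out). DESeq2 called 220 genes and limma-voom 34. At an unadjusted p under 0.05 each of the 3 tools took 1 member, Dok7, where edgeR took 9.93% of all genes. The log2 fold changes, Igf2 cKO over control, ran from -0.21 to 0.52 with a median of 0.18, and the median of all tested genes was 0.00. Values above 0 were found for 7 of the 9, and for 50.8% of all genes. The 10 genes together took 0.0239%, 0.0228% and 0.0242% of the raw counts of the controls, and 0.0257%, 0.0266% and 0.0274% of those of the knockouts. Agrn alone took 0.00715% on average. TMM scaling raises the level of control replicate 3 (16335647 counts, TMM library size 15291586). It lowers that of Igf2 cKO replicate 1 (17503334 and 17926781), so the gap between the groups in these shares depends on the scaling.

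**Figure D1:**
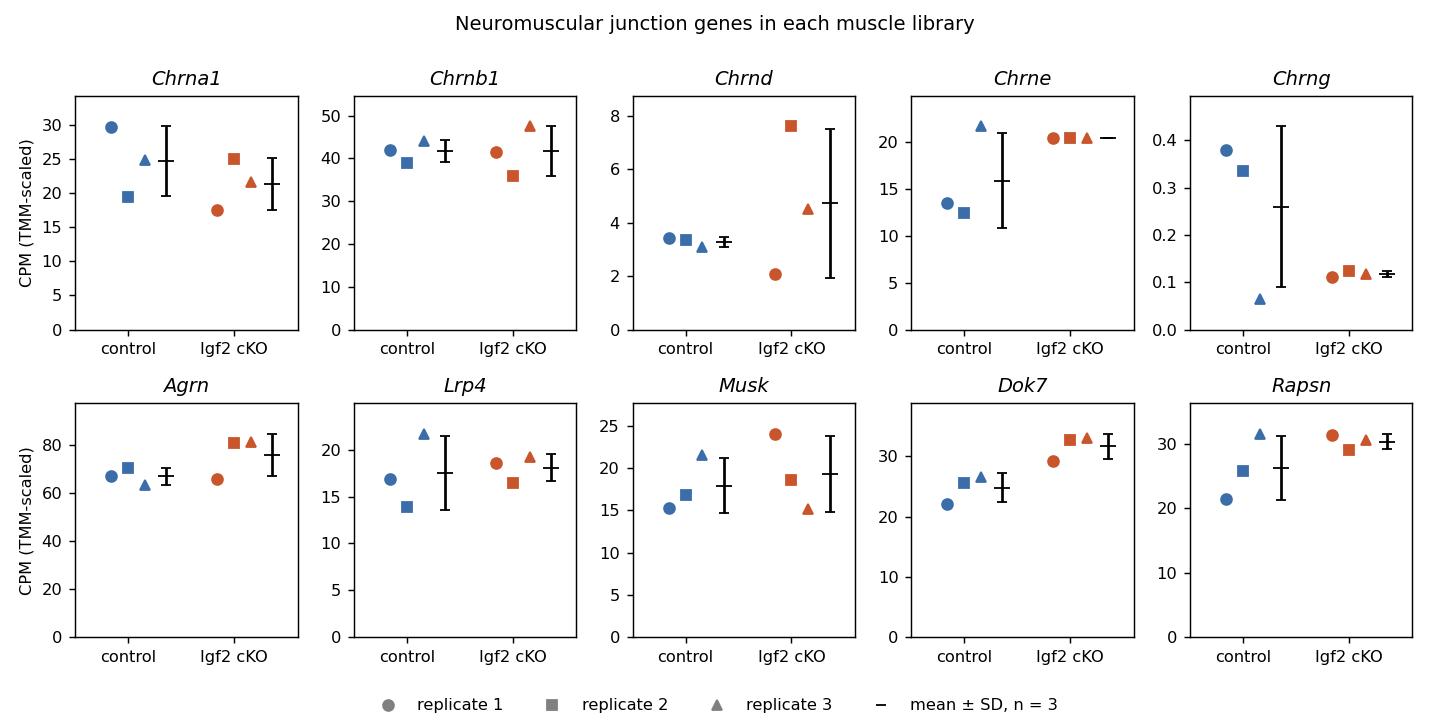
Level of each of the 10 genes in CPM (vertical axis, from 0) in the 3 control and 3 Igf2 cKO libraries, with the mean ± SD beside the points. Dok7 is the 1 gene with each knockout library above each control, as for 7.83% of all tested genes. Chrng stays under 0.4 CPM.

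The receptor subunits differed far more from each other than between genotypes. Per kilobase of the listed gene length, averaged over the 6 libraries, Chrnb1 (beta) stood at 16.5 CPM, Chrne (epsilon) at 10.7, Chrna1 (alpha) at 5.24, Chrnd (delta) at 1.22 and Chrng (gamma) at 0.0454. In controls beta made up 50.9% ± 3.58 (SD, n = 3) of the summed subunit level per length, epsilon 28.5% ± 5.54, alpha 17.3% ± 3.08, delta 3.11% ± 0.541 and gamma 0.203% ± 0.139. In Igf2 cKO muscle beta made up 47.1% ± 5.04, epsilon 34.7% ± 2.06, alpha 14.0% ± 2.38, delta 4.11% ± 2.45 and gamma 0.0814% ± 0.00512. The ranges of the groups overlapped for each subunit. RNA shares do not follow the composition of the receptor, which holds alpha in duplicate and 1 each of the others, and a listed length that includes exons the muscle does not use lowers a gene's level.

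Rapsn came between beta and epsilon at 15.7 CPM per kilobase. Agrn (7.71), Dok7 (6.61) and Musk (4.92) lay around alpha, and Lrp4 (1.69) lay just above delta. Between neighbours in this order the 6-library ranges overlapped except for Musk over Lrp4 and Chrnd over Chrng. With the length of the main annotated transcript in place of the listed length, Musk (5.55) moved above Chrna1 (5.24) and the other ranks held.

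**Figure D2:**
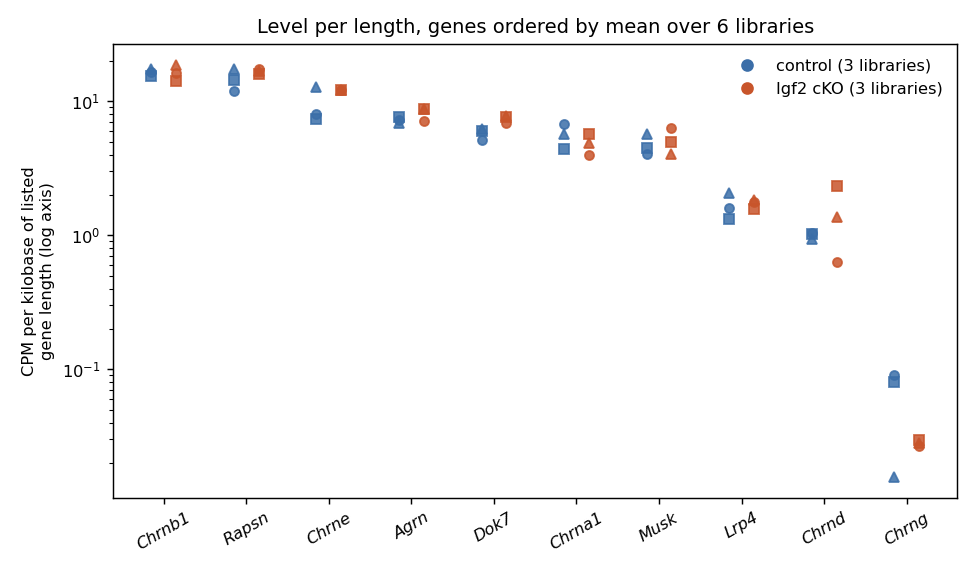
CPM per kilobase of listed gene length on a log axis for each library, with genes ordered by their mean over 6 libraries. Chrnb1 and Rapsn lie at the top near 16 CPM per kilobase, and Chrng lies below 0.1 in each library.

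Chrna1 (alpha, which carries much of the acetylcholine site; ENSMUSG00000027107, chromosome 2, 73563215 to 73580338) read 29.7, 19.4 and 24.9 CPM in the controls, in replicate order throughout. The knockouts read 17.5, 25.0 and 21.6 CPM. The groups overlapped, with the highest library a control and the lowest a knockout. The log2 fold change was -0.21 ± 0.18 (SE, adjusted p = 0.767 by edgeR, 95% interval -0.62 to 0.20), and it was -0.05 without control replicate 1 and -0.37 without control replicate 2.

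Chrnb1 (beta; ENSMUSG00000041189, chromosome 11, 69784036 to 69795943) was the steadiest subunit between the groups. Controls read 42.0, 38.9 and 44.1 CPM and knockout libraries 41.4, 35.9 and 47.5 CPM. The knockout libraries spanned both the lowest and the highest of the 6 values. The 95% interval of its log2 fold change, -0.27 to 0.27, was the narrowest of the tested members after those of Dok7 and Agrn.

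Chrnd (delta; ENSMUSG00000026251, chromosome 1, 87190607 to 87200070) was close in the 3 controls, at 3.41, 3.36 and 3.07 CPM. The knockouts gave 2.06, 7.61 and 4.49 CPM, on 37, 123 and 76 counts. The lowest and the highest libraries were thus both Igf2 cKO, and the SD was 0.181 CPM in controls and 2.78 CPM in the knockouts. The log2 fold change of 0.52 ± 0.41 (SE, adjusted p = 0.745 by edgeR, 95% interval -0.41 to 1.45) became -0.01 without Igf2 cKO replicate 2 and 0.88 without Igf2 cKO replicate 1. Igf2 cKO replicate 2 also had the highest slow fibre sum, 2449 CPM, and the lowest sum of the fast fibre list, 112822 CPM. Its Myh1 and Myh2, both on the fast fibre list, were the highest of the 6 libraries, at 4892 and 2921 CPM. The part of fibre type in the Chrnd value was not tested. In the authors' deposited table, which sets 1 knockout library against the control of the same number, Chrnd stood at -0.72, 1.18 and 0.55 on the log2 scale in comparisons 1 to 3 (adjusted p = 1.0, 0.605 and 1.0). The value of comparison 2 was the 1 of 30 for the 10 genes in the authors' deposited table with an unadjusted p under 0.05.

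Chrne (epsilon, the adult subunit; ENSMUSG00000014609, chromosome 11, 70614883 to 70619216) was nearly identical in the 3 knockout libraries, at 20.42, 20.42 and 20.40 CPM. Controls were spread over 13.5, 12.5 and 21.7 CPM. Control replicates 1 and 2 lay below each knockout library and control replicate 3 above each. The log2 fold change was 0.37 ± 0.20 (SE, adjusted p = 0.605 by edgeR, 95% interval -0.08 to 0.81). It was 0.65 without control replicate 3 (adjusted p = 0.168) and 0.21 without control replicate 2 (adjusted p = 0.886). A gene on the opposite strand, 4930544D05Rik, lies across Chrne with 0 shared exon bases and 15 to 30 counts.

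Chrng (gamma, the fetal subunit; ENSMUSG00000026253, chromosome 1, 87204657 to 87212694, just downstream of Chrnd) was near the limit of detection. Its counts were 7, 6 and 1 in the controls and 2 in each knockout library, below the filter on low counts, so it was not tested with the other genes. With no filter the log2 fold change was -1.12 ± 0.99 (SE, adjusted p = 0.78 by edgeR). Gamma made up between 0.3% and 2.73% of the gamma plus epsilon counts of a library. In the knockout libraries the exact Clopper-Pearson 95% upper bounds of that share were 1.95%, 2.16% and 2.07%, which cover counting error only. The knockout shares, 0.543%, 0.602% and 0.576%, lay between the lowest and the highest control, and no rise of the fetal subunit was detected.

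Agrn (agrin; ENSMUSG00000041936, chromosome 4, 156165290 to 156197488) had the most counts of the 10 genes. Nerve, muscle and other cells transcribe it, and the nerve's form differs by splicing that a count over the gene does not show. The controls were at 67.1, 70.5 and 63.6 CPM and the knockouts at 65.8, 81.0 and 81.3 CPM. Igf2 cKO replicates 2 and 3 lay above each control and replicate 1 among them, and the log2 fold change was 0.18 ± 0.11 (SE, adjusted p = 0.638 by edgeR). It was 0.13 without Igf2 cKO replicate 3 and 0.28 without Igf2 cKO replicate 1. The 11 Schwann cell markers summed to 727.8, 279.8 and 486.9 CPM in controls and 1195, 737.2 and 308.1 CPM in the knockouts. The part of Schwann cells in the Agrn values was not tested. In whole muscle, a change in the number of cells of a type and a change in RNA per cell cannot be told apart.

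Lrp4 (the agrin receptor; ENSMUSG00000027253, chromosome 2, 91457511 to 91513779) was at 16.8, 13.9 and 21.7 CPM in controls and 18.6, 16.5 and 19.3 CPM in the knockouts. The controls enclosed the other group, and the log2 fold change was 0.05 ± 0.16 (SE, adjusted p = 0.951 by edgeR, 95% interval -0.32 to 0.43). It was -0.10 without control replicate 2 and 0.24 without control replicate 3.

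Musk (the receptor kinase; ENSMUSG00000057280, chromosome 4, 58285960 to 58374303) varied as much within as between genotypes. Controls gave 15.3, 16.8 and 21.5 CPM and knockout libraries 24.0, 18.6 and 15.1 CPM. The Igf2 cKO group held the highest and the lowest value. The log2 fold change of 0.11 ± 0.19 (SE, adjusted p = 0.903 by edgeR, 95% interval -0.32 to 0.55) turned to -0.08 without Igf2 cKO replicate 1 and was 0.26 without control replicate 3.

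Dok7 (the adaptor that binds and activates MuSK inside the fibre; ENSMUSG00000044716, chromosome 5, 35056766 to 35087839) was the 1 member with groups that did not overlap. The controls read 22.1, 25.7 and 26.6 CPM, and the knockouts 29.3, 32.7 and 33.0 CPM. Each knockout library lay above each control, as for 7.83% of all tested genes, and 1 of 9 members is near that share. The means were 24.8 ± 2.39 and 31.7 ± 2.09 CPM (SD, n = 3 each), and the log2 fold change came to 0.35 ± 0.11 (SE), with a 95% interval of 0.11 to 0.60. It failed the correction over all genes, with an adjusted p of 0.303 by edgeR and between 0.247 and 0.591 over its 14 alternatives. The estimate stayed between 0.28 and 0.41 in them. In the authors' deposited table Dok7 stood at 0.41, 0.35 and 0.32 on the log2 scale in comparisons 1 to 3, each with an adjusted p of 1.0. These comparisons use the same libraries, so they are no separate check.

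Rapsn (rapsyn, the scaffold that binds the receptor's inner face; ENSMUSG00000002104, chromosome 2, 91035620 to 91045729) was at 21.5, 25.8 and 31.5 CPM in controls and 31.4, 29.0 and 30.6 CPM in the knockouts. Control replicates 1 and 2 were below the knockout libraries and control replicate 3 was above them, as for Chrne. The log2 fold change was 0.21 ± 0.14 (SE, adjusted p = 0.673 by edgeR, 95% interval -0.10 to 0.52). It was 0.08 without control replicate 1 and 0.36 without control replicate 3. Gm13778, on the opposite strand with 5 to 13 counts, shares 4 exon bases with Rapsn. Control replicate 3 was the highest control library for Chrnb1, Chrne, Lrp4, Musk, Dok7 and Rapsn, and the lowest for Chrnd, Chrng and Agrn.

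**Figure D3:**
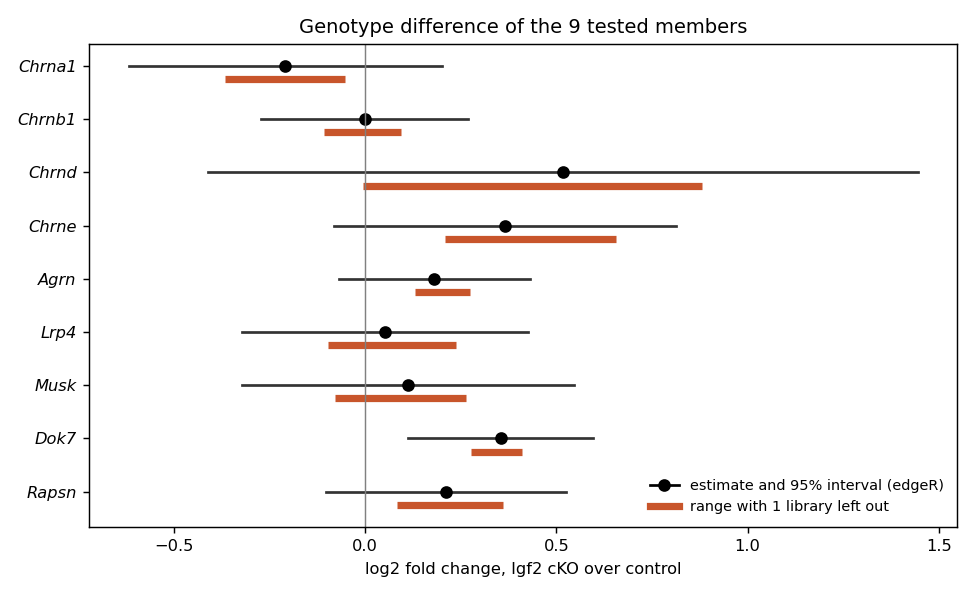
Log2 fold change, Igf2 cKO over control, of the 9 tested members with 95% intervals (black) and the range over 6 fits that each leave out 1 library (orange). The interval of Dok7 lies above 0 before correction over all genes, and the orange range of Chrnd runs from -0.01 to 0.88.

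Other genes of the junction were read from 6 lists, of which 58 of 68 genes could be tested. By edgeR 1 gene was called, Cdkn1a, higher, and 0 lower, beside 0.249% of all tested genes. A list with 0 called is near that share. An unadjusted p under 0.05 was found for 6 of the genes, beside 9.93% of all genes. The synaptic basal lamina list, with the esterase and laminins of the cleft, had 0 of 11 called and a median log2 fold change of -0.05. Its members with the smallest p were the collagen IV chains Col4a4 (-0.50, adjusted p = 0.43) and Col4a5 (-0.65, adjusted p = 0.565). Ache, the acetylcholinesterase, was at 0.13 (adjusted p = 0.848) and Colq, its collagen tail, at -0.05 (adjusted p = 0.96), and these 2 were picked after seeing their values.

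Inside the fibre, the partners of MuSK signalling had 0 of 16 called and a median of 0.02. Ptpn11, the phosphatase SHP2, was at 0.17 (adjusted p = 0.608) and Macf1, a cytoskeletal linker, at -0.17 (adjusted p = 0.66). The dystrophin and utrophin complex had 0 of 9 called and a median of -0.02, with the muscle sodium channel gene Scn4a at -0.19 (adjusted p = 0.751) and the syntrophin gene Sntb2 at -0.18 (adjusted p = 0.763). Utrn, the utrophin of the synaptic membrane, picked after seeing its value, was at 0.05 (adjusted p = 0.941).

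Neuregulin receptors and ETS factors, which act on N-boxes in synaptic nuclei, had 0 of 8 tested genes called and a median of -0.06. Gabpb2, a partner of the N-box factor GABPA, was at -0.25 (adjusted p = 0.456) and the ETS gene Etv1 at -0.25 (adjusted p = 0.617). Nrg1 and Erbb4, with at most 2 and 7 counts in a library, were not tested.

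Of 11 genes known to respond to denervation, 1 rose, 0 fell and 8 had values below 0, with a median of -0.10. Most of the list is known to rise on denervation, but Dach2, a repressor of Myog, is known to fall, and it is among the 8 (-0.30, adjusted p = 0.926). The called gene was Cdkn1a, the p21 gene, which halts the cell cycle and answers to many stresses, at 29.3 ± 0.823 CPM (SD, n = 3) in controls and 68.7 ± 14.4 CPM (SD, n = 3) in knockouts (log2 fold change 1.23 ± 0.14 SE, adjusted p = 0.0156 by edgeR). Myod1, a myogenic factor that binds E-boxes, was at 31.7, 20.7 and 17.7 CPM in controls and 41.8, 28.0 and 45.3 CPM in the knockouts (0.71 ± 0.24, adjusted p = 0.368). Myog, its relative and a main activator of receptor genes after denervation, was at -0.25 (adjusted p = 0.82), picked after seeing its value. Ncam1, a cell adhesion gene that denervated fibres express, was at 0.37 (adjusted p = 0.484), also picked after seeing its value.

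Neuronal nicotinic subunits were scarce. Of 11 genes 3 could be tested and 0 were called, and Chrna6, Chrnb3 and Chrnb4 had 0 counts in each library. For Chrna10 the controls had 80, 86 and 79 counts and the knockouts 16, 54 and 24. The log2 fold change of Chrna10, -1.35 ± 0.42 (SE), failed the correction (adjusted p = 0.32 by edgeR). Chrna4 was at -0.61 (adjusted p = 0.803).

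**Figure D4:**
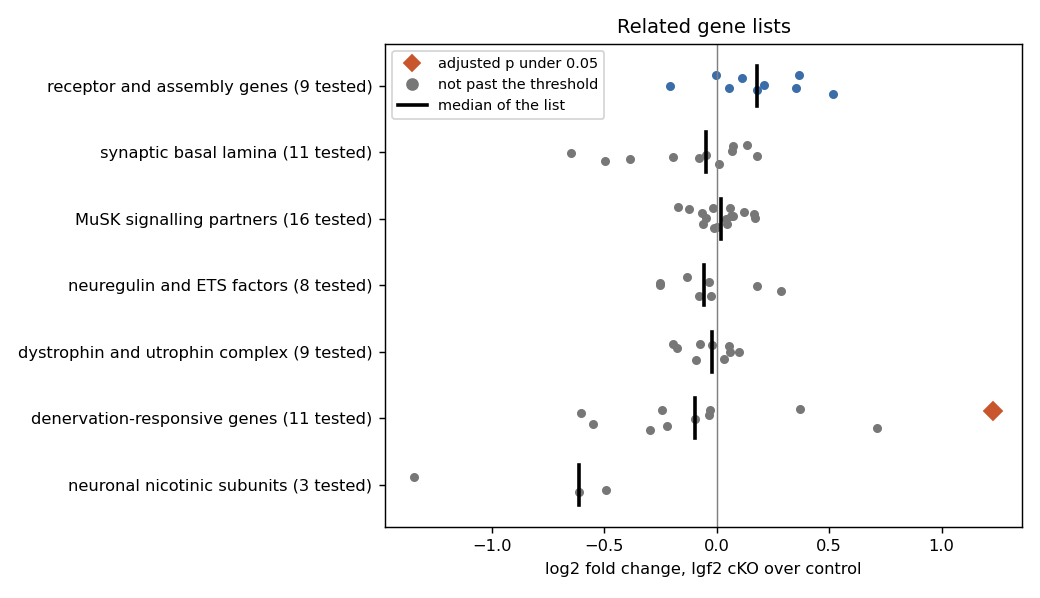
Log2 fold change, Igf2 cKO over control, of each tested gene in the receptor and assembly set and in 6 related lists, with the median as a black bar. Cdkn1a, the orange diamond at 1.23 in the denervation list, is the 1 gene past an adjusted p under 0.05.

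The genes whose log2 CPM followed the members most closely over the 6 libraries were taken by Pearson's r. For Chrna1 they included Zfp764 (r = 0.986) and Rc3h1 (0.985), each highest in control replicate 1 and lowest in Igf2 cKO replicate 1. For Musk they included Katna1 (0.99) and Gm37352 (0.986), each highest in Igf2 cKO replicate 1. With 6 libraries, 80 and 76 of the tested genes reached an r over 0.9 with Chrna1 and Musk, so these values only describe likeness.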

How the data were processed

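RNA of control and Igf2 cKO mouse muscle was sequenced as 3 libraries each by a commercial service, per the labels' protocols. No source used here names the aligner, counter, strand setting, genome build or annotation. Per the file headers, the authors deposited a raw count and an FPKM per gene and library, and, for 3 comparisons of single libraries by a method no source names, log2 fold changes with p-values, raw and adjusted. Values in 6 further columns, whose names match no sample title, were not used here. Coordinates are as in the table, and the 10 members have the same start and end in GENCODE M21 (GRCm38).

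Groups and replicate numbers came from the titles. The test was edgeR's quasi-likelihood F test (version 4.0.16, R 4.3.3) on the counts with genotype in the model, TMM factors, filterByExpr and Benjamini-Hochberg adjustment over 14867 genes, and calls needed an adjusted p under 0.05. CPM values use the TMM library sizes. Standard errors come from the F statistic. Adjusted p-values in the text are from this fit unless credited otherwise. The script was tested on simulated data, where each changed gene that was called had the right sign and most but not all strong changes were called; the share required to pass was lowered after that result was seen. Libraries of a group differed by more than sampling noise (chi-square per degree of freedom of at least 15.7), so none was counted as a duplicate. The labels do not say that the libraries of a group came from separate animals, so p-values measure only the spread between these libraries, which may be technical.

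The named genes are the 10 members, Igf2, up to 4 called genes of each related list (or, with fewer than 2 calls, the 2 of smallest p) and the 3 genes most like Chrna1 and Musk, of which some are not reported here. The members, the lists and the tests were chosen with earlier results of these data known. Alternatives were other size factors, filters and thresholds, removal of mitochondrial DNA genes, DESeq2 1.42.0, limma-voom (limma 3.58.1), the replicate number as a block, each library left out, the authors' FPKM and, added after the data had been seen, transcript lengths.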

Additional observations from a re-analysis of the deposited data

How the results depend on the processing

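The count of 0 called members held under each of 16 alternatives. Over all genes the count of 37 became 282 with no filter on low counts, 220 with DESeq2, 62 at an adjusted p under 0.1 and 235 by the rule of the series (unadjusted p under 0.05, absolute log2 fold change over 1). Leaving out control replicate 1, 2 or 3 gave 8, 15 or 13, and leaving out Igf2 cKO replicate 2 or 3 gave 68 or 17. The cause was not tested. Of 126 alternative log2 fold changes of members, 119 kept their direction and 0 were called. The 7 that turned came from leaving out 1 library, where Chrnb1 ran from -0.11 to 0.095, Chrnd from -0.0054 to 0.88, Lrp4 from -0.097 to 0.24 and Musk from -0.080 to 0.26.

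Libraries of the 2 genotypes share replicate numbers. Deviations from the group means correlated at 0.15, 0.05 and -0.05 for numbers 1 to 3, and not every library correlated best with its own number. With 3 libraries in each group, such low values cannot decide whether the numbers pair the samples. With the replicate number as a block 35 genes and 0 members were called. The median over all tested genes stayed within 0.1 of its value under each scaling. The authors' FPKM divides by the same listed length, so it gives the same subunit shares by arithmetic and is no separate check. With transcript lengths the Chrng share moved from 0.0814% to 0.11% in Igf2 cKO muscle and from 0.203% to 0.273% in controls. Between 1 and 7 counts of Chrng in a library limit what can be said of it.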
